A study of Sus scrofa with 5 samples.

Results

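The 7 genes described here code for parts of the sodium pump, its FXYD regulators and water channels. They were followed in pig blastoids and in pig embryonic stem cells (pESCs), the kind of cell that blastoids were made from. They were taken as a list of named genes, with no threshold on a measured value: ATP1B1 and ATP1B3, FXYD3 and FXYD4, and AQP1, AQP3 and AQP11. The list was drawn up with earlier results of these data known. They are 7 of the 30029 gene names in the single-cell count matrices. The 7 names were all found there and in the bulk expression table, and 5 of the 7 had enough counts to be tested. AQP1 and AQP3, with 25 and 49 UMIs in all called cells of both libraries, did not.

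The sodium pump (Na/K-ATPase) moves sodium out of a cell and potassium in, and it needs a catalytic alpha subunit and a beta subunit that carries the alpha subunit to the membrane. FXYD proteins are small membrane proteins that bind the pump and change its kinetics, and aquaporins let water follow the salt. In mammalian blastocysts the pump of the outer epithelium, the trophectoderm, drives sodium toward the inside, and water that follows fills the cavity.

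Blastoids are stem cell aggregates that resemble a blastocyst. The 2 libraries of UMI counts (unique molecular identifiers, 1 per captured RNA molecule) came from porcine blastoids of day 6 in iBlastoid medium. The blastoids were made from porcine ESCs and picked by hand for their inner and outer compartments and a cavity. The paper's improved method first formed cell clusters in 4FIXY medium without the inhibitor IWR1, and then moved them to iBlastoid medium. Its account of the single-cell samples does not name the method used. The 3 bulk RNA-seq libraries came from pESCs in 4FIXY medium, which the study derived from parthenogenetic blastocysts, although 1 of the 3 columns (IVFP25, PA_4P7 and PAP25) has a name that begins with IVF. How many structures each blastoid library pooled, and whether the libraries of a kind came from separate cultures, is not given in the sources used here, so p-values measure only the spread between these samples. Structures without a cavity and embryos were not analysed here.

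A barcode counted as a cell from 11223 UMIs up in library 1 and from 9805 up in library 2, which gave 7369 and 8175 cells with a median of 29728 and 27588 UMIs. The called cells of the libraries shared 9 barcodes. Cells were then compared by 5 gates, each holding the top 5% of cells of a library by the share of their UMIs that fell on 1 gene: POU5F1 (a pluripotency factor), GABRP (a GABA receptor subunit), TP63 (an epithelial transcription factor), ISG15 (an interferon-induced protein) and COL3A1 (a fibrillar collagen). A gate is a range of 1 gene and not a cell type. It held 326 to 404 cells per library after cells in 2 or more gates, 51 and 96, were left out. The lowest level inside differed between libraries for POU5F1, at 292 and 473 CPM (UMIs of the gene per 1e+06 UMIs), and for COL3A1, at 1150 and 481.

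Marker genes gave a rough check of what the gates held. The pluripotent list summed to 979 and 1246 CPM in the POU5F1 gate, against 62.9 to 198 in the other gates. The trophectoderm list, most of it keratins KRT8 and KRT18, summed to 23903 and 23010 CPM in the GABRP gate and to 5384 to 10216 elsewhere, while CDX2 had only 1.56 and 1.47 CPM there and 4.98 and 6.84 in the COL3A1 gate. The GABRP gate was also highest for the amnion list (1720 and 1483 CPM), which includes TAC3 and WNT6. Single genes went against both lists: HAND1 of the amnion list was highest in the COL3A1 gate (898 and 699.6 CPM against 475 and 395), and TFAP2C of the trophectoderm list was higher in the POU5F1 gate (68.3 and 40.2 CPM against 30.3 and 29.0) and in the TP63 gate (40.0 and 32.2 CPM). GATA2, also of the trophectoderm list, measured 43.1 and 43.3 CPM in the GABRP gate, below the TP63 gate (70.1 and 60.3) and the ISG15 gate (60.0 and 60.4) in both libraries. The COL3A1 gate held the mesenchyme genes (4890 and 3956 CPM). It was also the highest gate for the hypoblast list (284 and 272 CPM against at most 14.3 in the other gates), most of it GATA6 and GATA4. Of that list, SOX17 had 0.24 CPM in this gate of library 1, below the 0.70 of cells outside all gates, and FOXA2 had 0. In library 2, 1 of the 4 listed genes measured 0 CPM there and 2 reached 10 CPM. The summed cardiac list, most of it MYL7, was higher there than in any other gate (195 and 277 CPM). It came to 309 and 141 CPM in cells outside all gates. Single genes of the cardiac list differed from its sum. Among the gates, ACTC1 was highest in POU5F1, at 62.6 and 73.1 CPM against 31.3 and 66.1 in COL3A1. In library 1, ACTC1, MYL4 and TNNT2 were also higher in the ISG15 gate than in the COL3A1 gate. The surface ectoderm list did not single out the TP63 gate, where it summed to 243 and 257 CPM against 314 and 310 in the GABRP gate. Only 4 of its 6 genes were in the matrices. Most of the sum in library 1 was PERP, at 236 CPM in the TP63 gate and 303 in the GABRP gate. The interferon list reached 1328 and 1214 CPM in the ISG15 gate, and in library 1 most of this was IFI6 (1188 CPM). IFIT1 of that list went the other way in library 1, at 5.42 CPM against 12.3 in the COL3A1 gate.

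In the Sscrofa11.1 annotation of RefSeq (build susScr11, as the files use), each gene had 1 locus, and none overlapped another gene. ATP1B1 lies on chromosome 4 from 81912543 to 81937015 on the minus strand, and ATP1B3 on chromosome 13 from 82680442 to 82727052. FXYD3 lies on chromosome 6 from 44647771 to 44654377 and FXYD4 on chromosome 14 from 61633355 to 61637733. AQP1 lies on chromosome 18 from 42063482 to 42076741 on the minus strand, AQP3 on chromosome 10 from 33045374 to 33050285 and AQP11 on chromosome 9 from 12065550 to 12076339. The annotated transcript of AQP3 ended 18 bases after its coding sequence and that of AQP11 35 bases after it, against 194 for ATP1B1, and the part of these ends in the UMI counts was not tested.

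The 250 bases before the annotated start are shown for the 3 genes that were higher in the GABRP gate and for AQP11, which was lower there. They are read from RefSeq Sscrofa11.1, 5′ to 3′ on the strand of the gene, at chr4:81937016-81937265 (minus strand) for ATP1B1, chr6:44647521-44647770 for FXYD3, chr14:61633105-61633354 for FXYD4 and chr9:12065300-12065549 for AQP11. Capitals mark matches to 5 short motifs searched on both strands: GCCNNNGGC for AP-2, GGAATG for TEAD factors, AGATAA for the GATA family, ATGCAAAT for the octamer and GGGCGG for SP factors, of which the first and last can overlap.
ATP1B1: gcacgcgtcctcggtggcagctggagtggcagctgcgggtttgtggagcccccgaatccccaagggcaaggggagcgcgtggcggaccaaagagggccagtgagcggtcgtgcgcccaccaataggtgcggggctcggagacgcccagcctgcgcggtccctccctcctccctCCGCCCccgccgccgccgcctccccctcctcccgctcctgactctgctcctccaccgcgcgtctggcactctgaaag
FXYD3: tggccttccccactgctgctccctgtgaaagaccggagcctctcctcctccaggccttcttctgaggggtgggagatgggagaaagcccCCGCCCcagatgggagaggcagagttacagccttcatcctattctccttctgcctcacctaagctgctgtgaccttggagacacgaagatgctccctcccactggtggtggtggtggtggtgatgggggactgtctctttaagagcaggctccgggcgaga
FXYD4: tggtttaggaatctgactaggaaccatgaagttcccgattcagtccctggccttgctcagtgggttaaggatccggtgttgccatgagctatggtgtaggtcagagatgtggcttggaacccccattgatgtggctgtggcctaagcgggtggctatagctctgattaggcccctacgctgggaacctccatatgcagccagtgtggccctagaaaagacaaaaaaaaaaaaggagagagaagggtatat
AQP11: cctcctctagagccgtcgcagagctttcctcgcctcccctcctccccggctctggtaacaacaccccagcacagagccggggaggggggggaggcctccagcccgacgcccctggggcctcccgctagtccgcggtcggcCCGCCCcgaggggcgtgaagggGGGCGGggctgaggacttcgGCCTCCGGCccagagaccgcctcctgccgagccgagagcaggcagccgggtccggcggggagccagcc

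The SP letters were present before 6 of the 7 genes and in 45.9% of the 19559 windows of the same length before all protein-coding genes. FXYD4 was the member without them, and its window was also the lowest of the 7 in G and C, at 50.4% against 60.0% for FXYD3, 72.4% for ATP1B1 and 75.6% for AQP11, with a median of 57.6% over all windows. The AP-2 letters were found before ATP1B3 and AQP11 and in 22.0% of all windows. TEAD, GATA and octamer letters were found before none of the 7, and in 10.3%, 8.08% and 1.24% of all windows. The 3 genes that were higher together in the GABRP gate thus had no motif of this search in common. A match or its absence describes these letters in this window only.

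**Figure D1:**
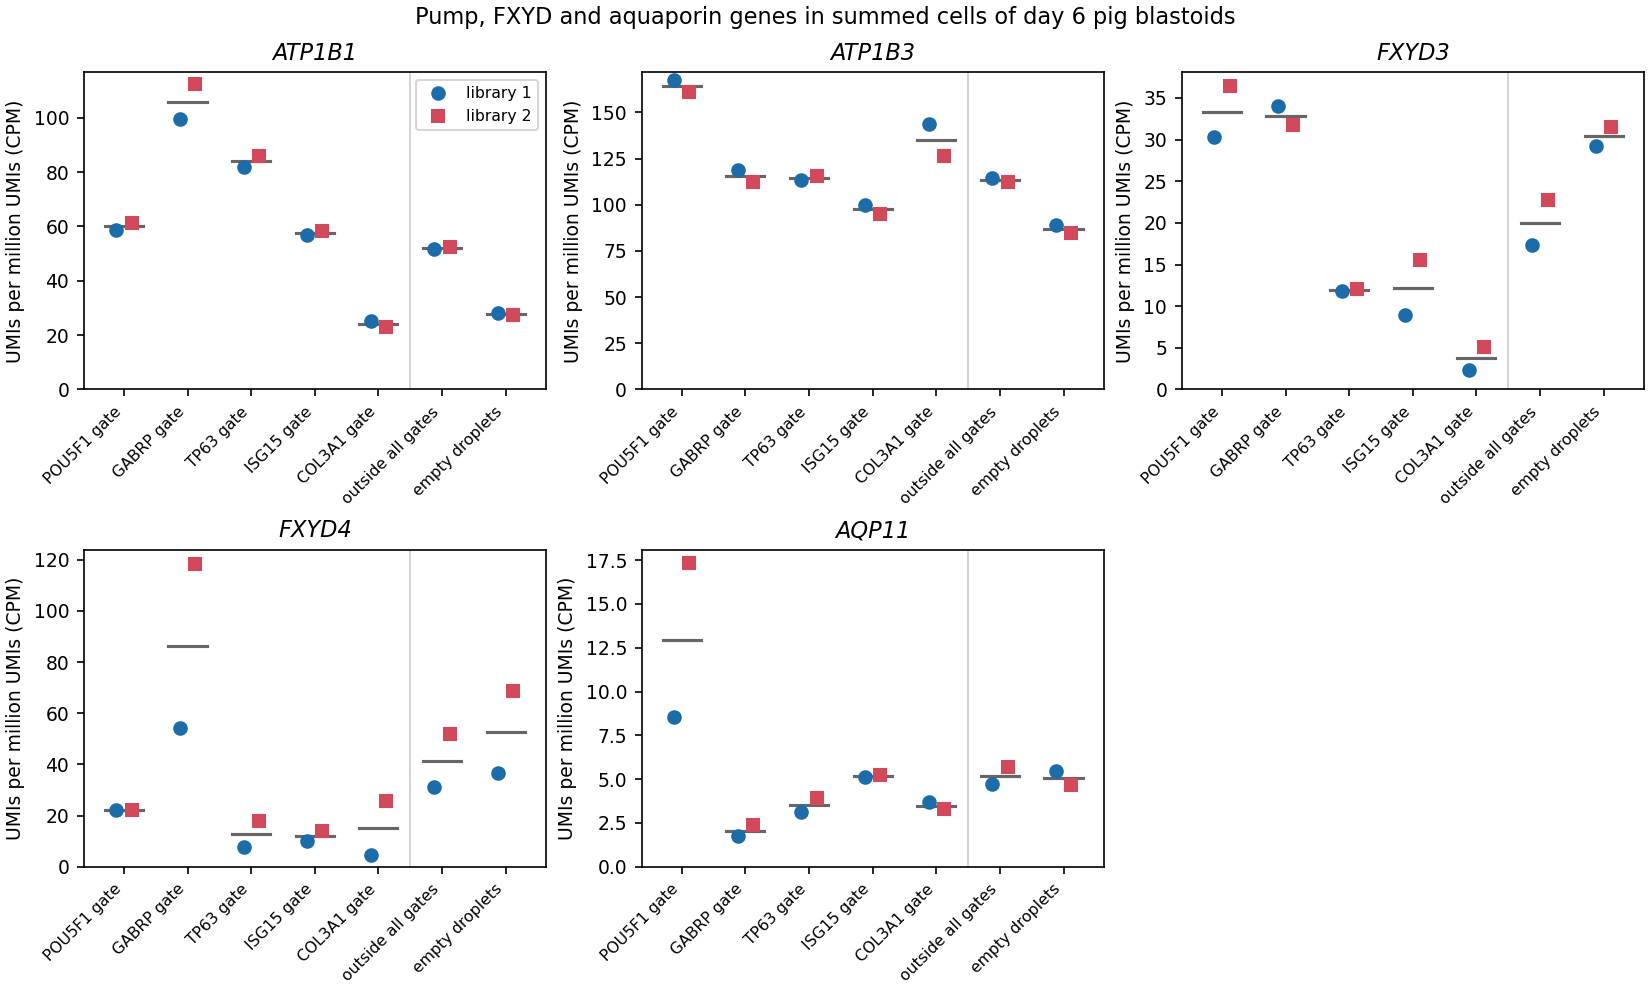
CPM of 5 of the genes in cells summed by gate, outside all gates and in empty droplets (barcodes with 10 to 100 UMIs), 1 point per library and a line at their mean. ATP1B1 is highest in both libraries of the GABRP gate and lowest in those of the COL3A1 gate, FXYD3 is highest in the POU5F1 and GABRP gates, and FXYD4 in the GABRP gate differs between libraries, at 54.1 and 118 CPM.

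The gates were tested with counts summed per library and gate, each gate against the mean of the other 4 on a log2 scale, by the quasi-likelihood test of edgeR, with p-values adjusted over 15970 genes by the method of Benjamini and Hochberg. In the GABRP gate, 3 of the 5 tested genes were higher and 1 lower, where 56.4% of all genes tested were called in either direction. The POU5F1 gate had 3 higher and none lower against 65% of all genes, and the COL3A1 gate 1 higher and 2 lower against 55.8%. The TP63 gate had 1 higher and 1 lower against 42.3%, and the ISG15 gate had 1 lower against 22%. With calls this common among all genes, the counts of members called are no result about the members, and what follows is about which genes moved and by how much. The median log2 difference of the 5 was 1.30 in the GABRP gate, 0.37 in the POU5F1 gate, -0.43 in the TP63 gate, -0.29 in the ISG15 gate and -0.62 in the COL3A1 gate, and that of all genes lay between -0.04 and 0.01.

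Scaling matters for small differences here. TMM factors of the GABRP sums were 0.854 and 0.857, and with total UMIs as the only scaling, chosen after seeing the data, the median of all genes in that gate was -0.26 in place of 0.01. The share of calls that were higher then fell from 54.5% to 30.7% in the GABRP gate and rose from 48.3% to 59.9% in the POU5F1 gate and from 52.2% to 67.7% in the TP63 gate. CPM values in the text are not scaled by TMM, while log2 differences are.

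To order the levels of a gene, each pair of gates was compared in the same fit, and these comparisons are given singly below. Of all genes tested, 66.3% were called between the POU5F1 and GABRP gates, 61% between POU5F1 and TP63, 51.3% between POU5F1 and ISG15 and 59.3% between POU5F1 and COL3A1. Between GABRP and TP63 it was 41.3%, between GABRP and ISG15 43.7%, between GABRP and COL3A1 58.2%, between TP63 and COL3A1 53.5% and between ISG15 and COL3A1 48.3%. The TP63 and ISG15 gates were the most alike pair, with 16.1% called.

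ATP1B1 codes for the beta-1 subunit of the pump, the form known from most epithelia. It measured 99.6 and 112 CPM in the GABRP gate of libraries 1 and 2, 82.0 and 85.9 CPM in the TP63 gate, and 58.6 and 61.4 CPM in the POU5F1 gate. The ISG15 gate had 56.8 and 58.4 CPM, and the COL3A1 gate had 25.4 and 22.9 CPM. In CPM, which is not scaled by TMM, no 2 gates overlapped, although the lower POU5F1 library and the higher ISG15 library were nearly level. In the TMM-scaled fit the difference of these 2 gates had the opposite sign, at -0.05. ATP1B1 was higher in the GABRP gate than in the other 4 by 1.30 ± 0.06 on the log2 scale (SE, adjusted p = 6.73e-09) and higher in the TP63 gate by 0.52 ± 0.07 (adjusted p = 8.2e-05). It was lower in the COL3A1 gate, at -1.63 ± 0.08 (adjusted p = 9.67e-09), or -1.01 (adjusted p = 2.14e-06) with cells outside all gates as the reference. In pairs of neighbouring gates, GABRP exceeded TP63 (0.63 ± 0.08, adjusted p = 8.84e-05) and TP63 exceeded POU5F1, where the reverse difference was -0.51 ± 0.08 (adjusted p = 2.0e-04). POU5F1 and ISG15 did not pass the test (-0.05 ± 0.08, adjusted p = 0.67), and ISG15 exceeded COL3A1 (1.25 ± 0.10, adjusted p = 6.34e-07).

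The share of cells with a UMI of ATP1B1 followed its level only in part. With every cell thinned to 9805 UMIs, 55.8% ± 8.35 of GABRP gate cells (SD, n = 2 libraries) held at least 1 UMI of ATP1B1, against 48.3% ± 2.80 in the TP63 gate, 39.3% ± 1.75 in the ISG15 gate, 37.5% ± 4.42 in the POU5F1 gate and 15.4% ± 0.53 in the COL3A1 gate. In library 1 the GABRP and TP63 gates had nearly the same share, 49.9% and 50.3%. Without thinning, 80.0% of the GABRP gate cells and 31.3% of the COL3A1 gate cells held one. Empty droplets, which hold RNA free in the suspension, had 27.7 CPM ± 0.53 of ATP1B1, above the COL3A1 gate. The share of that gate's UMIs that came from free RNA was not tested.

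ATP1B3 codes for the beta-3 subunit, the other beta form among the 7 genes. Its gate means ran from 97.6 CPM ± 3.43 in the ISG15 gate to 164 CPM ± 4.45 in the POU5F1 gate (SD, n = 2). The POU5F1 gate had 168 and 161 CPM, the COL3A1 gate 144 and 126, the GABRP gate 119 and 113, the TP63 gate 113 and 116, and the ISG15 gate 100.1 and 95.2. The POU5F1 gate was above every other gate in both libraries and the ISG15 gate below. ATP1B3 was higher in the POU5F1 gate by 0.37 ± 0.06 (log2 ± SE, adjusted p = 1.2e-04) and lower in the ISG15 gate by -0.44 ± 0.06 (adjusted p = 4.4e-04). The difference of the ISG15 gate was -0.13 (adjusted p = 0.48) with cells outside all gates as the reference. In pairs, the POU5F1 gate exceeded the TP63 gate (0.49 ± 0.08, adjusted p = 1.4e-04) and the ISG15 gate (0.65 ± 0.08, adjusted p = 2.73e-05). It did not pass against the GABRP gate (0.18 ± 0.08, adjusted p = 0.052) or the COL3A1 gate (0.17 ± 0.08, adjusted p = 0.072), and both pairs passed with the library as a block (adjusted p = 0.026 and 0.037). The GABRP gate exceeded the TP63 gate (0.31 ± 0.08, adjusted p = 0.0072) and the ISG15 gate (0.46 ± 0.08, adjusted p = 4.5e-04), but not the COL3A1 gate (-0.01 ± 0.08, adjusted p = 0.91). The TP63 and ISG15 gates lay below the COL3A1 gate (-0.32 and -0.48, adjusted p = 0.0041 and 2.8e-04). Between TP63 and ISG15 the difference did not pass (0.16 ± 0.08, adjusted p = 0.20).

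Smaller differences of ATP1B3 did not hold across settings. It was higher in the COL3A1 gate by 0.16 ± 0.06 (adjusted p = 0.041), a call that was lost with gates of 2% or 10% of cells, with cells in 2 or more gates kept and without that gate's sum of library 1 (0.06, adjusted p = 0.52). A gate with 1 sum was taken to vary like the other gates, which kept both sums. In the TP63 gate it was lower by -0.24 ± 0.06 (adjusted p = 0.0083), which missed the threshold without that gate's sum of library 1 (-0.21, adjusted p = 0.096) and with total UMIs as the scaling (-0.14, adjusted p = 0.077). It turned to 0.03 (adjusted p = 0.84) with cells outside all gates as the reference. In the GABRP gate the difference of 0.15 ± 0.06 did not pass (adjusted p = 0.059). It passed in 4 of 14 other settings, with the library as a block (adjusted p = 0.031), gates by thinned count, 10% gates and cells outside all gates as the reference (0.33), with adjusted p as low as 9.1e-04. It turned to -0.12 with total UMIs as the scaling. ATP1B3 was found in 63.4% ± 0.65 of all thinned cells, and of the gates ISG15 had the lowest share, 55.7% ± 2.78 (SD, n = 2). In empty droplets ATP1B3 made up 86.7 CPM ± 3.23, near the 97.6 CPM of the ISG15 gate and the 117 CPM of all cells. CPM gives the make-up of the free RNA and not its amount. The empty droplets held 146 and 198 UMIs of ATP1B3 in all, over 118122 and 165131 barcodes. The part of free RNA in the shares of cells was not tested.

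**Figure D2:**
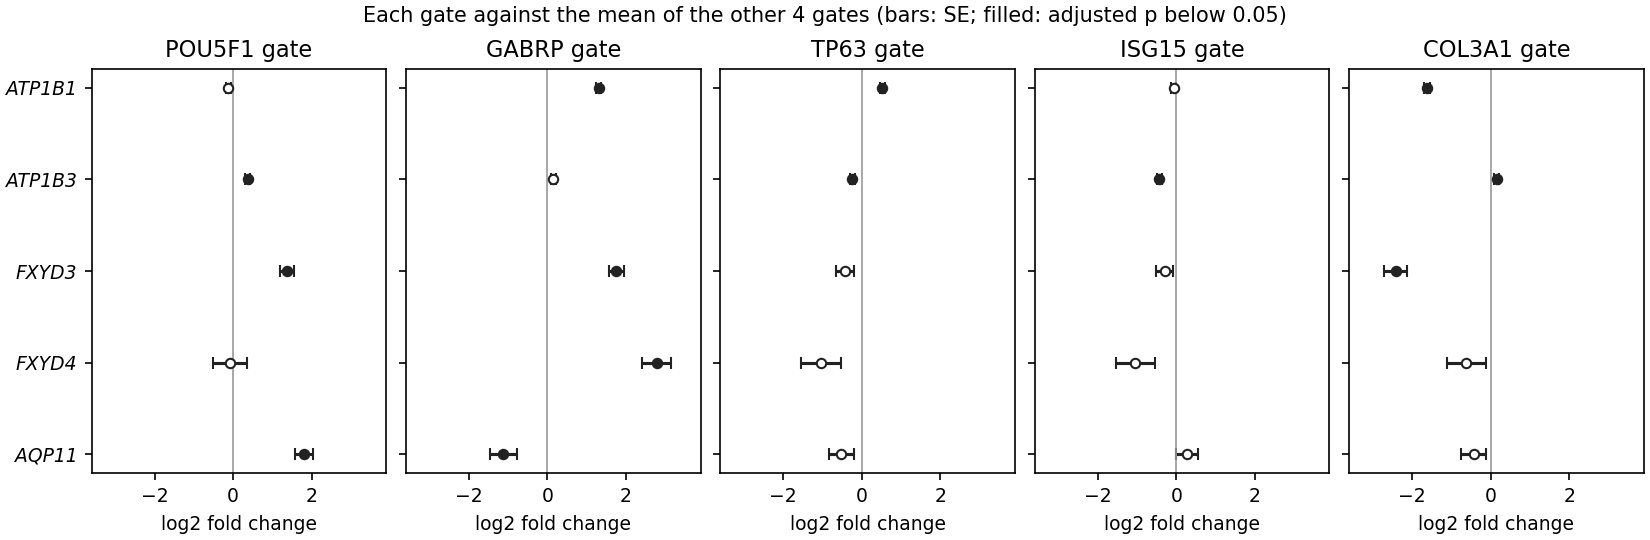
Difference of each gate from the mean of the other 4 gates on the log2 scale, with the standard error as bars and calls at an adjusted p below 0.05 filled, for the 5 tested genes. ATP1B1 and FXYD3 lie above 0 in the GABRP gate and below 0 in the COL3A1 gate, FXYD4 has the widest errors, and AQP11 lies above 0 in the POU5F1 gate at 1.80 and below 0 in the GABRP gate at -1.12.

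FXYD3 codes for a pump regulator known from epithelia and from several carcinomas. It measured 34.0 and 31.7 CPM in the GABRP gate and 30.3 and 36.4 CPM in the POU5F1 gate. The TP63 gate had 11.8 and 12.1 CPM, the ISG15 gate 8.94 and 15.5, and the COL3A1 gate 2.37 and 5.07. FXYD3 thus had a pair of high gates that overlapped each other, and the other 3 lay below them in both libraries. It was higher in the GABRP gate by 1.76 ± 0.19 (adjusted p = 6.81e-06) and in the POU5F1 gate by 1.38 ± 0.18 (adjusted p = 2.69e-05), and lower in the COL3A1 gate by -2.41 ± 0.29 (adjusted p = 1.7e-05). All 3 calls held over the 14 other settings, with values of 0.81 to 2.13 for GABRP, lowest with gates by thinned count, and -3.20 to -1.67 for COL3A1, nearest 0 with 10% gates. For POU5F1 they ran from 0.72 to 1.54 and were lowest against cells outside all gates (adjusted p = 0.010). The POU5F1 gate did not differ from the GABRP gate beyond the spread (-0.30 ± 0.22, adjusted p = 0.24), and it exceeded the TP63 gate (1.45 ± 0.25, adjusted p = 2.9e-04). The TP63 and ISG15 gates did not pass the test (-0.11 ± 0.28, adjusted p = 0.83), and the TP63 gate exceeded the COL3A1 gate (1.59 ± 0.36, adjusted p = 0.0027).

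After thinning, 24.5% ± 2.06 of POU5F1 gate cells and 24.2% ± 1.23 of GABRP gate cells held a UMI of FXYD3, against 1.72% ± 1.23 in the COL3A1 gate (SD, n = 2). Without thinning the POU5F1 gate had 54.8% and the GABRP gate 48.7%. Median UMIs per cell were 39550 and 36071 in the POU5F1 gate and 21693 and 19887 in the COL3A1 gate. In empty droplets FXYD3 made up 30.4 CPM ± 1.62, close to the level of the 2 high gates, and the COL3A1 gate at 3.72 CPM ± 1.91 had far less. The part of free RNA in the levels of the other gates was not tested.

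FXYD4, also called CHIF, is known as a pump regulator of the kidney collecting duct and the distal colon that responds to salt-retaining hormones. It measured 54.1 and 118 CPM in the GABRP gate, against 22.1 and 22.3 in the POU5F1 gate. The TP63 gate had 7.81 and 17.8 CPM, the ISG15 gate 9.93 and 14.1, and the COL3A1 gate 4.39 and 25.6. Both libraries of the GABRP gate lay above every other gate, and the libraries of the COL3A1 gate spanned the values of the other 3. FXYD4 was higher in the GABRP gate by 2.78 ± 0.37 (adjusted p = 4.03e-05). Over the 14 other settings this call held while its size ran from 1.36 (adjusted p = 0.022), with cells outside all gates as the reference, to 3.84 with 2% gates. It was 2.06 without that gate's sum of library 2. In the other gates its errors were 0.43 to 0.51, and no difference passed: -0.08 for POU5F1 (adjusted p = 0.89), -1.05 for TP63 (adjusted p = 0.12), -1.04 for ISG15 (adjusted p = 0.17) and -0.62 for COL3A1 (adjusted p = 0.32), a value that was 0.13 without that gate's sum of library 1 and -2.39 without that of library 2. Without 1 cell of library 2, the COL3A1 gate there measured 5.55 CPM. In pairs, the GABRP gate exceeded each of the others, by 2.28 to 3.06 (adjusted p = 7.6e-04 to 0.0015), and no other pair passed. With the library as a block the POU5F1 gate also exceeded the TP63 gate (0.84 ± 0.34, adjusted p = 0.049).

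With the library as a block, FXYD4 passed as lower in the TP63 gate (adjusted p = 0.012) and in the ISG15 gate (adjusted p = 0.019), where the number of members called then went from 1 to 2. The level outside all gates, 31.1 and 51.9 CPM, was above that of 4 of the 5 gates. Empty droplets held 36.6 and 68.7 CPM, more in library 2, as in the cells.

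FXYD4 was held by few cells. After thinning, the 1% of cells with most FXYD4 UMIs held 64.5% of them in library 1 and 53.0% in library 2. The same share was 10.6% and 10.5% for ATP1B1, 4.83% and 4.90% for ATP1B3, and 17.2% and 16.7% for FXYD3. Its variance over cells was 20.7 and 20.0 times its mean, against 1.71 and 1.78 times for ATP1B1 and 1.38 and 1.52 times for FXYD3, where counting error alone gives a ratio near 1. In a single cell it reached 317 UMIs in library 1 and 248 in library 2. ISG15, which marks the interferon gate, had similar ratios of 18.4 and 19.3.

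**Figure D3:**
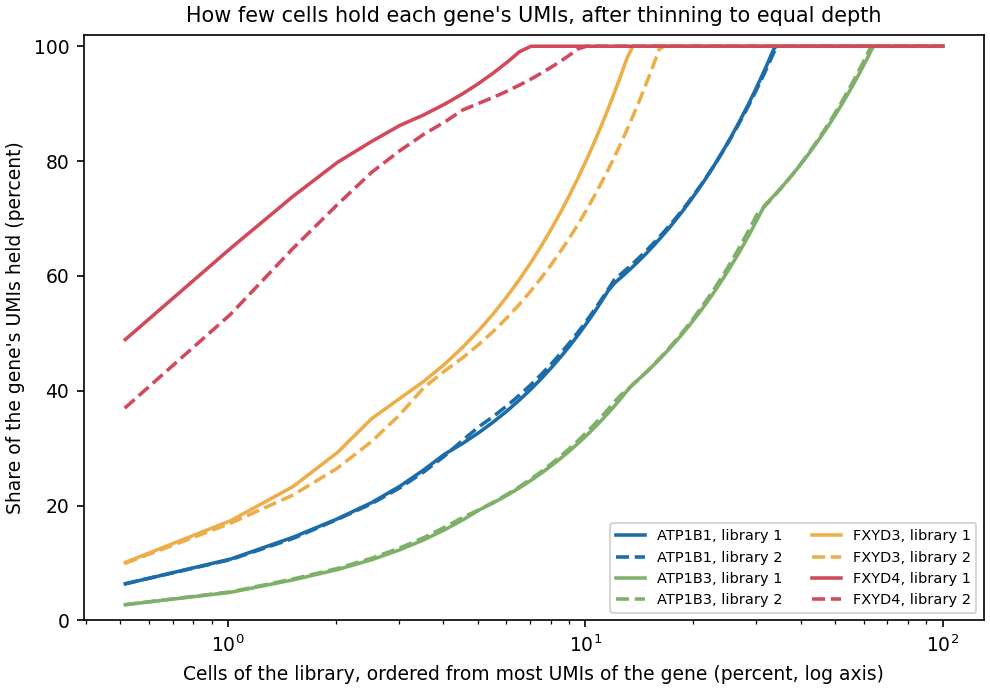
Share of all UMIs of a gene held by the cells with most of them, against the percent of cells counted on a log axis, for both libraries after thinning each cell to the same number of UMIs. The curves of FXYD4 stand apart, with 64.5% and 53.0% of its UMIs in 1% of the cells, and those of ATP1B3 rise last.

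Cells with at least 5 thinned UMIs of FXYD4, a limit chosen after the values were seen, numbered 99 of 7369 in library 1 and 205 of 8175 in library 2. They made up 1.34% and 2.51% of cells and held 64.0% and 73.3% of all FXYD4 UMIs counted without thinning. Of them, 79 and 171 lay outside all gates, where 5580 and 6226 of all cells lay. The GABRP gate held 10 and 19, which were 2.85% and 5.28% of its cells, the POU5F1 gate 6 and 6, the ISG15 gate 2 and 5, the TP63 gate 1 and 2, and the COL3A1 gate 0 and 1. Their median UMIs were 33074 and 31474, against 29669.5 and 27523.5 in the other cells.

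Without these cells the FXYD4 level was lower in every gate and library but the COL3A1 gate of library 1, which held none of them. The GABRP gate then had 30.8 and 34.5 CPM and the POU5F1 gate 6.06 and 6.78. The TP63 gate had 6.82 and 11.2 CPM, the ISG15 gate 7.72 and 7.60, and the COL3A1 gate 4.39 and 5.55. The 1 cell left out of the COL3A1 gate of library 2 accounted for the fall from 25.6 to 5.55 CPM. The GABRP gate stayed above every other gate in both libraries, and the gap between its libraries closed from 54.1 and 118 CPM to 30.8 and 34.5. These values are a description, since the cells were chosen by FXYD4 itself.

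The other pump genes were also high in FXYD4-rich cells. ATP1B1 measured 164 and 148 CPM there against 53.1 and 53.4 in all other cells. FXYD3 measured 49.3 and 48.1 CPM against 17.2 and 21.8, and ATP1B3 210 and 209 against 117 and 113. AQP11 was the exception, with 2.46 and 3.58 CPM against 4.77 and 6.09. The direction was the same in both libraries for all 4 genes, and no test was made.

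AQP11 codes for an aquaporin that sits mostly in membranes inside the cell. It measured 8.55 and 17.3 CPM in the POU5F1 gate, and both libraries lay above every other gate. The ISG15 gate had 5.15 and 5.25 CPM, the COL3A1 gate 3.68 and 3.31, the TP63 gate 3.10 and 3.92, and the GABRP gate 1.76 and 2.36. AQP11 was higher in the POU5F1 gate by 1.80 ± 0.23 (adjusted p = 2.41e-05) and lower in the GABRP gate by -1.12 ± 0.35 (adjusted p = 0.016), a value of -0.95 (adjusted p = 0.13) without that gate's sum of library 1. Both differences were smallest with gates by thinned count, at 1.05 and -0.56 (adjusted p = 4.0e-05 and 0.0099), and the POU5F1 gate had 1.16 without its sum of library 2. The ISG15, TP63 and COL3A1 gates did not pass, at 0.28 ± 0.28, -0.53 ± 0.32 and -0.43 ± 0.32 (adjusted p = 0.54, 0.20 and 0.28). In pairs the POU5F1 gate exceeded each other gate, by 1.22 to 2.33 (adjusted p = 1.1e-04 to 0.0054), and the GABRP gate lay below the ISG15 gate (-1.12 ± 0.41, adjusted p = 0.043). Its order across gates ran against that of ATP1B1 at the top, where the GABRP gate was highest for one and lowest for the other.

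AQP11 was found in few cells. After thinning it was seen in 5.77% and 16.1% of POU5F1 gate cells, and in 4.32% and 5.55% of all cells. Without thinning the POU5F1 gate had 25.3% and 31.4%. In empty droplets it made up 5.49 and 4.69 CPM from 9 and 11 UMIs, the level of all cells together (4.74 and 6.02 CPM). The libraries of the POU5F1 gate, whose lowest POU5F1 level was 292 and 473 CPM, differed more than those of any other gate for this gene, and the part of that limit in the difference was not tested.

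AQP1 and AQP3, the water channels usually named for water flux across plasma membranes, were near the limit of the counts. AQP1 had 9 and 16 UMIs in all cells of the libraries and AQP3 had 18 and 31, or 0.035 to 0.12 CPM. In the GABRP gate library 1 held 0 UMIs of either among 10240473, which allows a level of up to 0.293 CPM by counting error (3 counts), and library 2 held 1 of AQP1 and 2 of AQP3. The highest level of AQP3 was in the TP63 gate, from 3 UMIs in each library (0.30 and 0.33 CPM). Empty droplets held none of either, which allows up to 1.83 CPM in library 1 and 1.28 in library 2. No fold change is given for these genes.

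Of the UMIs that fell on the 12 aquaporin genes in the matrices, 68.8% (2800) belonged to AQP11. AQP7 had 506, MIP 364, AQP4 201 and AQP9 73, and the other 7 had 49 or fewer each, AQP3 and AQP1 included. These are counts and are not scaled by transcript length.

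A list of 39 further gene names for pump subunits, FXYD proteins, aquaporins, sodium and chloride channels, exchangers, cotransporters and their kinases was read beside the 7. SLC9A3R1 and NHERF1 on it name the same gene, which the matrices hold as SLC9A3R1. Of the 39 names, 34 were in the matrices and 23 could be tested. In the GABRP gate 14 of the 23 were higher and 2 lower, with a median of 0.76, against 30.7% of all genes higher, 25.7% lower and a median of 0.01. With total UMIs as the scaling the counts were 11 and 3. In the POU5F1 gate 4 were higher and 10 lower (median -0.42, against 31.4% and 33.6% of all genes), and in the COL3A1 gate 8 and 11 (median -0.40, against 28.6% and 27.1%). The TP63 gate had 6 and 5 (median 0.13, against 22.1% and 20.2%) and the ISG15 gate 2 and 2 (median -0.23, against 12.9% and 9.15%).

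SLC12A2, the sodium-potassium-chloride cotransporter that loads epithelial cells with chloride, measured 512 and 555 CPM in the GABRP gate and 33.5 to 113 CPM in the others. It was higher in the GABRP gate by 3.27 ± 0.08 (adjusted p = 6.15e-11) and lower in the POU5F1 gate by -2.10 ± 0.11 (adjusted p = 2.1e-08). SGK1, a kinase that raises sodium channel and pump activity, was higher in the GABRP gate (2.21 ± 0.10, adjusted p = 4.18e-09) at 206 and 198 CPM. It was also higher in the COL3A1 gate (1.51 ± 0.10, adjusted p = 1.32e-07) at 176 and 141 CPM. In the POU5F1 gate it was lower (-3.94 ± 0.15, adjusted p = 4.34e-09) at 9.07 and 7.66 CPM.

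Among other subunits, ATP1B2 was lower in the GABRP gate (-1.97 ± 0.68, adjusted p = 0.026), from 2 UMIs in each library, so that its size is imprecise. ATP1B4, the other beta subunit gene of the wider list, had 12 UMIs in all and was not tested.

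The 3 subunit genes of the epithelial sodium channel, SCNN1A, SCNN1B and SCNN1G, were all higher in the GABRP gate, by 1.88, 1.46 and 1.77, and all lower in the COL3A1 gate, at -1.99, -2.04 and -2.60. SCNN1G was higher in the TP63 gate (1.35 ± 0.15, adjusted p = 3.6e-05) at 11.2 and 10.5 CPM and its COL3A1 gate level was 1.19 and 1.10 CPM (adjusted p = 1.87e-06). SCNN1B was higher in the TP63 gate (1.30 ± 0.22, adjusted p = 6.5e-04). CFTR, the cyclic AMP-gated chloride channel, was higher in the TP63 gate (1.23 ± 0.18, adjusted p = 2.0e-04) and in the ISG15 gate (1.27 ± 0.17, adjusted p = 3.0e-04), at 31.1 to 33.1 CPM. Cells outside all gates were level with these 2 gates, at 28.8 and 33.6 CPM. In the COL3A1 gate CFTR was lower (-1.97 ± 0.26, adjusted p = 3.3e-05), at 4.15 and 6.18 CPM.

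FXYD genes outside the 7 differed between gates as well. FXYD5, a pump regulator that also affects cell adhesion, was higher in the POU5F1 gate (2.34 ± 0.18, adjusted p = 3.35e-07), at 7.17 and 8.86 CPM. FXYD7, known from brain, was higher in the COL3A1 gate (2.12 ± 0.23, adjusted p = 8.45e-06) at 8.78 and 6.95 CPM, and lower in the TP63 gate (-1.30 ± 0.33, adjusted p = 0.0081). FXYD6 was higher in the COL3A1 gate (0.95 ± 0.07, adjusted p = 1.77e-07) and the GABRP gate (0.76 ± 0.07, adjusted p = 1.7e-06), and lower in the TP63, ISG15 and POU5F1 gates, at -0.77, -0.51 and -0.43 (adjusted p = 1.58e-05, 5.2e-04 and 2.1e-04). Cells outside all gates had 37.1 and 35.8 CPM of FXYD6, level with the POU5F1 gate (35.8 and 37.0). The other named calls were of SLC9A3, SLC9A3R1 and WNK4. SLC9A3, a sodium-hydrogen exchanger, was higher in the POU5F1 gate (1.64 ± 0.36, adjusted p = 0.0016). Its level there was only 1.25 and 1.07 CPM, from 19 and 16 UMIs. The other gates held 2 to 5 UMIs of it per library, so that the size is imprecise. SLC9A3R1, its scaffold protein, was lower in the ISG15 gate (-0.51 ± 0.06, adjusted p = 7.9e-05) and higher in the GABRP gate (1.44 ± 0.05, adjusted p = 6.47e-10). Its ISG15 gate level, 96.3 and 96.9 CPM, was that of cells outside all gates, 99.3 and 95.1. The gates it was compared with include GABRP (245 CPM in both libraries) and COL3A1 (164 and 150 CPM). The kinase WNK4 was higher in the COL3A1 gate (2.05 ± 0.28, adjusted p = 4.7e-05).

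**Figure D4:**
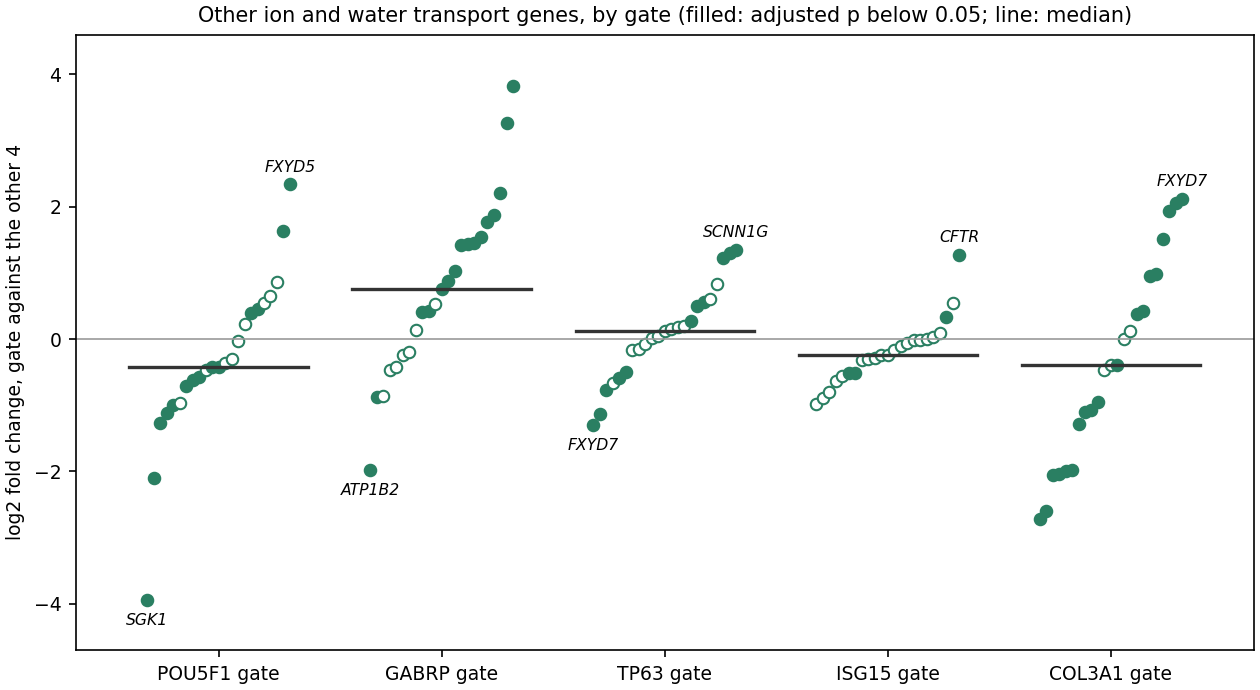
Difference of each gate from the other 4 gates on the log2 scale for the 23 tested genes of the wider transport list, ordered within each gate, with calls at an adjusted p below 0.05 filled and the median as a line. The median is highest in the GABRP gate at 0.76 and lowest in the POU5F1 gate at -0.42, and genes at the ends are named where they are described in the text.

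Across the 12 sums of both libraries (5 gates and the cells outside them), ATP1B1 and FXYD3 correlated at 0.74 and FXYD3 and FXYD4 at 0.70 (Pearson's r of log2(CPM + 1)). ATP1B1 and ATP1B3 correlated at -0.26 and FXYD4 and AQP11 at -0.18. The sums of 1 library share that library, and the 2 sums of 1 gate share its choice, so these are descriptions. The genes most like ATP1B1 were RHPN2 (0.99), GABBR1 (0.98) and NTNG1 (0.98), and those most like FXYD3 were GIPC1 (0.98), GRB7 (0.97) and FDX1 (0.97). For ATP1B3 they were PRDX6 (0.97), HK1 (0.96) and TAF1B (0.94), for AQP11 CPSF4 (0.98), TSR2 (0.97) and TIMM50 (0.97), and for FXYD4 GIT1 (0.90), MKNK2 (0.90) and DVL1 (0.89).

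In the pESCs the genes were read as FPKM, the authors' fragment counts scaled by transcript length and total, added up here per gene symbol. ATP1B1 had 175 FPKM in the IVFP25 column, 183 in PA_4P7 and 137 in the PAP25 column (165 ± 24.7, SD, n = 3). ATP1B3 measured 66.6, 80.2 and 63.0 FPKM in the same order (69.9 ± 9.09). ATP1B1 was above ATP1B3 in each library, by 2.63, 2.28 and 2.17 times. In a bulk sample, fewer cells that express a gene and less of its RNA per cell cannot be told apart.

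AQP11 was the aquaporin with the highest FPKM, at 14.8, 14.9 and 13.0 (14.2 ± 1.02), and was at or above 74.3% to 76.7% of the genes listed above 0. AQP3 measured 1.19, 1.13 and 1.74 FPKM (1.36 ± 0.334). AQP1 was listed at 0 in IVFP25 and measured 0.040 and 0.13 FPKM in PA_4P7 and PAP25. AQP11 was thus above AQP3 and AQP1 in each of the 3 libraries.

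Both FXYD genes of the list were low in pESCs. FXYD3 measured 2.52, 0.984 and 1.31 FPKM (1.61 ± 0.81), highest in IVFP25. FXYD4 measured 0.355 FPKM in IVFP25 and 0.588 in PAP25 and was listed at 0 in PA_4P7. FXYD6, by comparison, measured 45.9, 51.8 and 48.6 FPKM. FPKM of bulk pESCs and CPM of blastoid cells come from different assays and were not compared with each other. No test was made over the 3 libraries, which are 1 group by their sample titles. Their column names differ, and could stand for a different origin or passage, which the sample titles do not state. An SD over the 3 libraries includes any such difference.

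**Figure D5:**
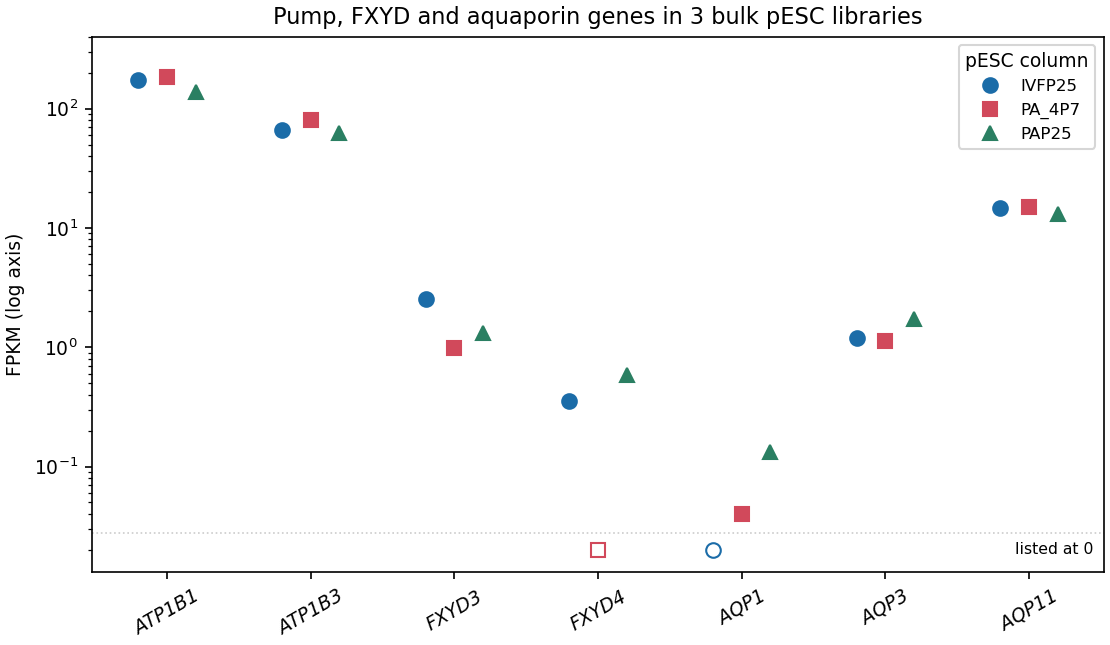
FPKM on a log axis of the 7 genes in the 3 pESC libraries, 1 point per library, with values listed at 0 drawn open at the bottom. ATP1B1 lies at 137 to 183, AQP11 at 13.0 to 14.9, and FXYD4 and AQP1 each have 1 library at 0.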

How the data were processed

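The deposited single-cell files hold raw UMI counts of every barcode, which the authors made with Cell Ranger 7.1.0 on susScr11. The deposited FPKM values, per RefSeq transcript, were made by the authors with Trim Galore 0.6.4, HISAT2 2.2.1 and StringTie 2.2.1 on the same build, and hold neither counts nor depth. The members and lists were chosen with earlier results of these data known. Cells were barcodes at or above the UMI floors and held 87.8% and 87.7% of UMIs. A gate also needed 3 UMIs of its gene. Of the feature names, 29862 matched RefSeq Sscrofa11.1 and 24 of 24 mitochondrial features had its coordinates. No doublet caller was run. In place of one, cells above the 95th percentile of UMIs were left out as an alternative.

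Counts of cells were summed per library and gate (8430684 to 15210271 UMIs per sum) and fitted with edgeR 4.0.16 (filterByExpr, TMM, quasi-likelihood test) over 12 sums, with calls at an adjusted p below 0.05. Sums of 1 library share its preparation, so the library pairs them. Their deviations from gate means correlated at 0.0039 to 0.090 between gates and at 0.15 to 0.23 with cells outside, and the fit without the block is the one reported. These correlations are over all genes tested and do not describe a single member. With the block, the SE between the GABRP and TP63 gates went from 0.56 to 0.31 for FXYD4 and from 0.25 to 0.18 for FXYD3. The reported errors of these genes thus include differences between libraries. An SE is the log2 difference over the root of F. The edgeR contrast of the GABRP gate was tried on simulated counts, with the same spread for all genes and no library effect. Cell calling, gates, thinning and pairs of gates were not simulated. DESeq2 1.42.0 and other gates, filters and scalings were alternatives. Named genes were the 7, the gate genes, up to 4 called genes of the wider list per gate by the size of the difference, and the 3 most correlated genes per member with at least 10 CPM in a sum. SCNN1 genes, FXYD6 in pESCs and the aquaporin counts were read beside them. Some genes that the rule names are not reported here. A bound for a count of 0 uses 3 counts and covers counting error only.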

Additional observations from a re-analysis of the deposited data

How the results depend on the processing

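Of 350 refitted differences (25 for 14 settings), 313 kept their direction and side of the threshold, 8 lost and 13 gained a call, and 16 changed sign. Of the 13 calls, 9 held in every setting run. The other 4 are ATP1B3 in the TP63, ISG15 and COL3A1 gates and AQP11 in the GABRP gate. Leaving out a replicate dropped 1 sum of the gate tested, whose lone sum was taken to vary like the other gates, which kept both. Where construction does not show it, the cause was not tested.

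Members called went from 1 to 0 in the ISG15 gate with cells outside all gates as the reference and to 2 with the replicate block. The block changed the calls of ATP1B3 in the GABRP gate, of FXYD4 in the TP63 and ISG15 gates and of 3 pairs of gates (32 to 35 calls), and no other call of a member. In the TP63 gate they went from 2 to 1 with total UMIs as the scaling, and were 1 to 2 leaving out a replicate. All genes called fell from 3515 to 451 (ISG15 gate) and from 6757 to 4447 (TP63 gate) with cells outside as the reference, to 1755 and 1802 (ISG15) leaving out a replicate, and to 4022 (TP63) without replicate 1.

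ATP1B1 in the POU5F1 gate turned to 0.19 against cells outside, 0.031 with gates by thinned count, 0.081 with 2% gates and 0.018 with total UMIs, and in the ISG15 gate to 0.23 against cells outside and 0.010 with 2% gates. FXYD4 in the POU5F1 gate turned to 0.086 without cells of highest UMIs, 0.60 with gates by thinned count, 0.0068 with the replicate block, 0.23 with 10% gates and 0.068 with total UMIs. ATP1B3 turned to 0.025 in the TP63 gate against cells outside and to -0.12 in the GABRP gate with total UMIs. FXYD3 in the ISG15 gate was 0.0050 with 2% gates. Leaving out a replicate it ran from -0.75 to 0.051, and FXYD4 in the COL3A1 gate from -2.39 to 0.13.

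Without thinning, the share of all cells with a UMI was 62.9% for ATP1B1, 89.2% for ATP1B3, 34.1% for FXYD3, 16.4% for FXYD4, 14.9% for AQP11, 0.31% for AQP3 and 0.15% for AQP1, higher by construction.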

Other observations

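The FXYD4-rich cells shared other genes between libraries. Ranked by the ratio of their CPM to that of all other cells, each raised by 5 CPM, 15 of the 20 leading genes were the same in both libraries, which is 75% of each list. These genes were named after their values were seen. DEFB1, an epithelial antimicrobial peptide, led in both libraries, at 409 and 499.7 CPM against 2.81 and 5.62. SLC28A3, a sodium-coupled nucleoside transporter, had 149 and 118 CPM against 3.12 and 3.08, and FOLR1, a folate receptor, 205 and 223 against 9.03 and 13.7. DPPA5, known from pluripotent cells, had 235 and 141 CPM against 3.78 and 4.75, while POU5F1 itself had 90.3 and 110 against 62.9 and 95.5. The fatty acid binding protein FABP3 had 905 and 1120 CPM against 127 and 133.

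Ion transport genes and a related factor were read beside them. FOXI1, a transcription factor known from ionocytes, ranked 20 in library 1, at 32.8 CPM against 0.69, and 672 in library 2, at 4.03 against 0.44. ATP6V0A4, a subunit of the proton pump, ranked 17 and 23, at 40.5 and 43.9 CPM against 1.53 and 1.65. SLC12A2 had 276 and 332 CPM against 101 and 105. The sodium channel gene SCNN1B had 15.3 and 12.7 CPM against 3.72 and 3.17. SGK1 barely differed, at 59.1 and 53.5 CPM against 62.5 and 51.6.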
